A study of Arabidopsis thaliana with 9 samples.

Results

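Leaf transcripts of a VQ28 overexpressing line of Arabidopsis thaliana, VQ28OE9, were compared with those of wild-type Col-0 (WT). The comparison rests on 6 of the 9 libraries of the series, 3 of VQ28OE9 and 3 of WT, taken by genotype label. It covers the 16050 of 33610 genes in the deposited table whose mean over the 9 libraries was at least 1 FPKM, a level per gene length and per sequenced fragment. Members of processes, families and pathways are described here across the whole set of tested genes.

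The RNA came from rosette leaves detached from plants 30 days old that had not been infected, grown in a chamber with light for part of each day, and polyadenylated RNA was sequenced. VQ28OE9 is 1 overexpression line, so the line and the transgene cannot be told apart, and the labels give neither the promoter nor the vector. The other 3 libraries, from a knockout line of the same gene named VQ28KO12, entered the gene filter, the scaling and the estimate of the spread between libraries, but not the 2 means compared. Whether the 3 libraries of a genotype are separate plants is not said in the labels, and the p-values therefore rest on a spread between libraries that may be technical only.

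The deposited counts summed to between 70542580 and 77172452 units in the VQ28OE9 libraries and between 64552605 and 71023343 units in the WT libraries, where about 4 units stand for 1 fragment. The first principal component of the 9 libraries, with 35.5% of the variance, held the VQ28OE9 libraries at scores of 37.9 to 49.3 and the WT libraries at -36.5 to -2.45. Replicate 3 of VQ28OE9 and of WT stood apart from the other libraries on the second principal component, which held 16.7% of the variance, at scores of -37.8 for VQ28OE9 and -33.6 for WT. For AT2G01010, an 18S ribosomal RNA gene, WT replicate 3 had 122 units and every other library at least 20000.

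VQ proteins are small plant proteins that carry a short motif through which many of them bind WRKY transcription factors. WRKY factors recognise a short DNA element, the W box, and are known in leaves for the control of defence, senescence and responses to drought and wounding. VQ proteins can raise or lower the activity of the WRKY factor they bind, depending on the member.

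VQ28 (AT4G20000, taken from the published numbering of the family) supplied 0.531%, 0.396% and 0.506% of all units in VQ28OE9 libraries 1 to 3, with 374682, 303869 and 390579 units. In WT it had 525, 27 and 368 units. By FPKM it ranked 7, 14 and 6 among all genes in the VQ28OE9 libraries, against 7913, 17584 and 8855 in WT. Every VQ28OE9 library was far above every WT library, and WT replicate 2 had few fragments of the gene. The log2 fold change was 10.03 ± 1.67 (SE; edgeR adjusted p = 0.0215), and the call was lost without VQ28OE9 replicate 1, WT replicate 1 or WT replicate 3 (highest adjusted p = 0.0695). None of the tested genes among the nearest on either side had an adjusted p under 0.05, and the log2 fold change of the potassium transporter gene KUP9 was 0.49 (adjusted p = 0.164) and that of FRS1 was 0.33 (adjusted p = 0.747).

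At an edgeR adjusted p under 0.05, 370 of the 16050 genes (2.31%) changed in VQ28OE9 against WT. Of these, 220 genes (1.37% of those tested) were higher and 150 (0.935%) were lower in VQ28OE9. The median log2 fold change was 1.19 among the higher genes and -1.15 among the lower ones, against -0.0029 over all tested genes, of which 7964 lay above 0. Changes of at least 2-fold were seen in 148 higher and 90 lower genes. The higher genes include SADHU3-2, which had 21 units in VQ28OE9 and 0 in WT, both under the floor of 3 fragments per library, and passed the filter through VQ28KO12, where its mean was 8.41 FPKM. In all 370 the VQ28OE9 and WT libraries did not overlap in FPKM, which was also so for 3576 of all tested genes (22.3%). The share of genes that changed was 1.74% among genes with a mean of 1 to under 5 FPKM, 2.36% from 5 to under 20 FPKM, 3.06% from 20 to under 100 FPKM and 2.39% from 100 FPKM upward. Of the 1992 tested genes with no description in the deposited table, 33 were higher and 8 lower.

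**Figure D1:**
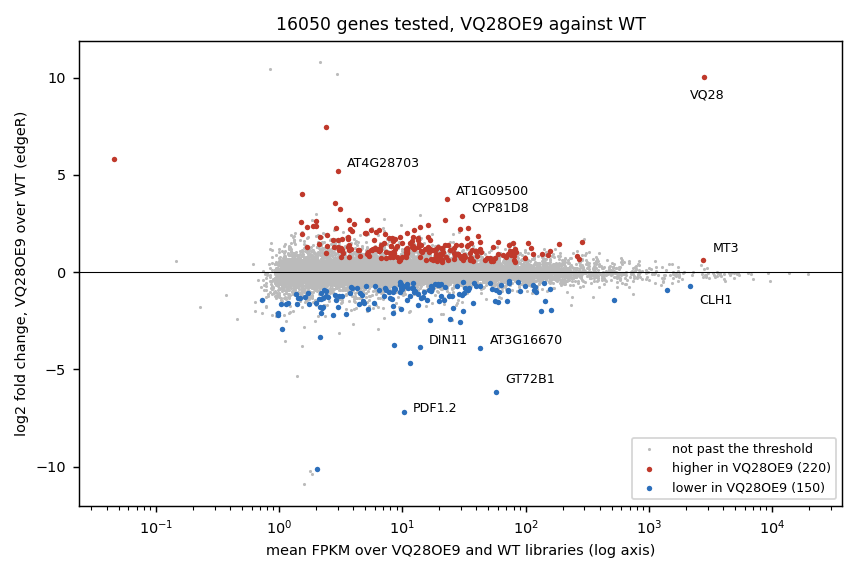
Log2 fold change, VQ28OE9 over WT, of each tested gene (vertical axis) against its mean FPKM over the VQ28OE9 and WT libraries (log axis). Coloured points are the 220 higher and 150 lower genes, which are spread over the whole range of levels.

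Calls depended on how many libraries entered the fit. The fold change of all 370 genes kept its sign in all 23 fits, but only 40 of the calls, 26 higher and 14 lower, held whichever of the 9 libraries was left out, which is written here as kept without any 1 library. Of the 370, 45 passed without VQ28OE9 replicate 1, 118 without VQ28OE9 replicate 2 and 181 without VQ28OE9 replicate 3, and 91, 131 and 101 without WT replicates 1, 2 and 3. WT replicate 3 was the lowest WT library in 151 of the 220 higher genes (68.6%), against 39.8% of all tested genes.

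Among the 15 largest rises, the genes with a known type of product were mostly enzymes and signalling proteins. The gene with the largest of these rises, AT4G28703, encodes a cupin-fold protein. AT1G09500 encodes a member of the NAD(P)-binding Rossmann-fold superfamily. CYP81D8 is a cytochrome P450 known to respond to electrophiles and xenobiotics, and NANA is an aspartyl protease of the chloroplast.

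AT4G28703 had 8.44, 4.89 and 4.39 FPKM in VQ28OE9, against 0.246, 0.197 and 0 FPKM in WT. All 3 VQ28OE9 libraries were above all WT libraries, where the gene had 18 units in all against 737 in VQ28OE9, a ratio of normalized units of 36.5 (95% exact binomial interval on fragments 15.8 to 152, counting error only). Its fitted log2 fold change was 5.21 ± 0.72 (SE; edgeR adjusted p = 0.0128). AT3G21080, annotated as related to ABC transporters, had 4.09, 5.85 and 5.80 FPKM in the VQ28OE9 libraries, against 0.191, 0.314 and 0.799 FPKM in the WT libraries. NANA had 4.05, 5.73 and 7.26 FPKM in VQ28OE9 and 0.416, 0.655 and 0.689 FPKM in WT. Both were many times lower in WT with no overlap, and the log2 fold change was 3.55 ± 0.47 for AT3G21080 (edgeR adjusted p = 0.0112) and 3.24 ± 0.40 for NANA (edgeR adjusted p = 0.011). AT4G28703, AT3G21080 and NANA averaged 0.334, 0.433 and 0.708 FPKM in VQ28KO12 and under 1 FPKM in WT. They passed the filter only through their high level in VQ28OE9, and genes as low in WT without such a rise were not tested. AT1G09500 rose by 3.78 ± 0.40 (SE; edgeR adjusted p = 0.011), with its highest VQ28OE9 value, 73.0 FPKM, in replicate 3, and CYP81D8 rose by 2.90 ± 0.38 (SE; edgeR adjusted p = 0.011), with its highest, 69.1 FPKM, in replicate 1.

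AT5G42830, an acyltransferase of the HXXXD type, averaged 23.3 ± 1.40 FPKM in VQ28OE9 and 4.58 ± 2.03 FPKM in WT (SD, n = 3 each), a log2 fold change of 2.33 ± 0.26 (SE; edgeR adjusted p = 0.011). These 6 genes kept their call without any 1 library. The other 9 of the 15 lost it without at least 1, with log2 fold changes of 2.19 for MPK11 (highest edgeR adjusted p 0.0718) to 2.70 for AT5G45630 (highest edgeR adjusted p 0.0908). They include DAR3, a relative of the ubiquitin receptor DA1, and AT1G63750, a receptor of the TIR-NBS-LRR class of intracellular immune receptors. Another 5 of the 9 have no description in the deposited table: AT1G36622, AT5G44585, AT1G53625, AT1G67920 and AT4G33467. AT1G67920 overlaps AT1G67930 in the deposited coordinates, so its counts are uncertain. A gene below the level of this ranking, AT2G01422, was named after its values were seen: it had 4.50, 4.37 and 5.61 FPKM in VQ28OE9 libraries 1 to 3 and 0, 0 and 0.0720 FPKM in the WT libraries. In units it had 882 in VQ28OE9 against 4 in WT, a ratio of 197 (95% exact binomial interval on fragments 34.9 to 7786), and its call was kept without any 1 library.

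Among genes with at least 5 FPKM in WT the falls were led by PDF1.2, a jasmonate- and ethylene-responsive defensin, with 14 units in VQ28OE9 against 1876 in WT. That is 150-fold lower in VQ28OE9 (95% exact binomial interval on fragments 51.0 to 484). Its near-identical copy PDF1.2c had 0 units in VQ28OE9 and 387 in WT, at least 12-fold lower against a floor of 3 fragments in each library. The sources used here do not say how reads were divided between the copies. PDF1.2 lost its call without VQ28OE9 replicate 1 (edgeR adjusted p = 0.050036), and PDF1.2c without 8 of the 9 libraries (highest edgeR adjusted p 0.123).

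GT72B1, a glycosyltransferase that acts on phenolic compounds and some xenobiotics, had 1.12, 2.15 and 1.54 FPKM in VQ28OE9, against 96.8, 111 and 135 FPKM in WT. Its VQ28OE9 libraries were all low and its WT libraries close together, but its call (log2 fold change -6.18 ± 1.27 (SE; edgeR adjusted p = 0.0406)) held in only 10 of 22 alternatives (highest adjusted p without 1 library 0.149). Its fold change stayed between -6.42 and -5.47 on the log2 scale in all of them. In the VQ28KO12 libraries it stood at 114, 0.999 and 117 FPKM, so that a level as low as in VQ28OE9 was also seen in VQ28KO12 replicate 2. AT3G16670, of the Ole e 1 and extensin family, had 2.36, 11.2 and 2.97 FPKM in the VQ28OE9 libraries, against 94.9, 82.1 and 64.9 FPKM in the WT libraries. Here VQ28OE9 replicate 2 stood above the other VQ28OE9 libraries and still well below WT, and the log2 fold change of -3.90 ± 0.51 (SE; edgeR adjusted p = 0.011) was kept without any 1 library. DIN11, a 2-oxoglutarate-dependent oxygenase gene known to be induced in the dark, averaged 1.81 ± 1.01 FPKM in VQ28OE9 and 25.98 ± 9.74 FPKM in WT (SD, n = 3 each). It fell by 3.86 on the log2 scale (edgeR adjusted p = 0.0127), also kept without any 1 library.

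ATCSLA15, of the family that holds mannan synthases, had 0.358, 1.29 and 1.88 FPKM in VQ28OE9 and 9.78, 14.7 and 22.97 FPKM in WT. CYP71A13, an enzyme of camalexin synthesis, had 10.1, 5.15 and 8.25 FPKM in VQ28OE9 libraries 1 to 3 and 44.1, 50.9 and 27.6 FPKM in the WT libraries. In both genes the lowest WT library was more than the highest VQ28OE9 library by a wide margin. The log2 fold changes were -3.77 ± 0.58 (SE; edgeR adjusted p = 0.0177) for ATCSLA15, lost without VQ28OE9 replicate 2 (adjusted p = 0.054), and -2.39 ± 0.37 (SE; edgeR adjusted p = 0.0177) for CYP71A13, lost without VQ28OE9 replicate 1 (adjusted p = 0.0519). The GDSL lipase gene AT1G54010 (log2 fold change -2.58) and its tandem copy GLL22 (-1.61) were both lower, and reads may be shared between them. AT2G27228 (-4.68) and AT5G10695 (-2.44) each overlap another gene in the deposited coordinates, so their counts are uncertain, since the sources used here do not say whether the counting used the strand. The rest of the 15 were CYP71B37, AT4G24340, GSTF2, PME3, the lectin gene AT3G16530 and ZFP8, between -2.13 and -1.91.

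**Figure D2:**
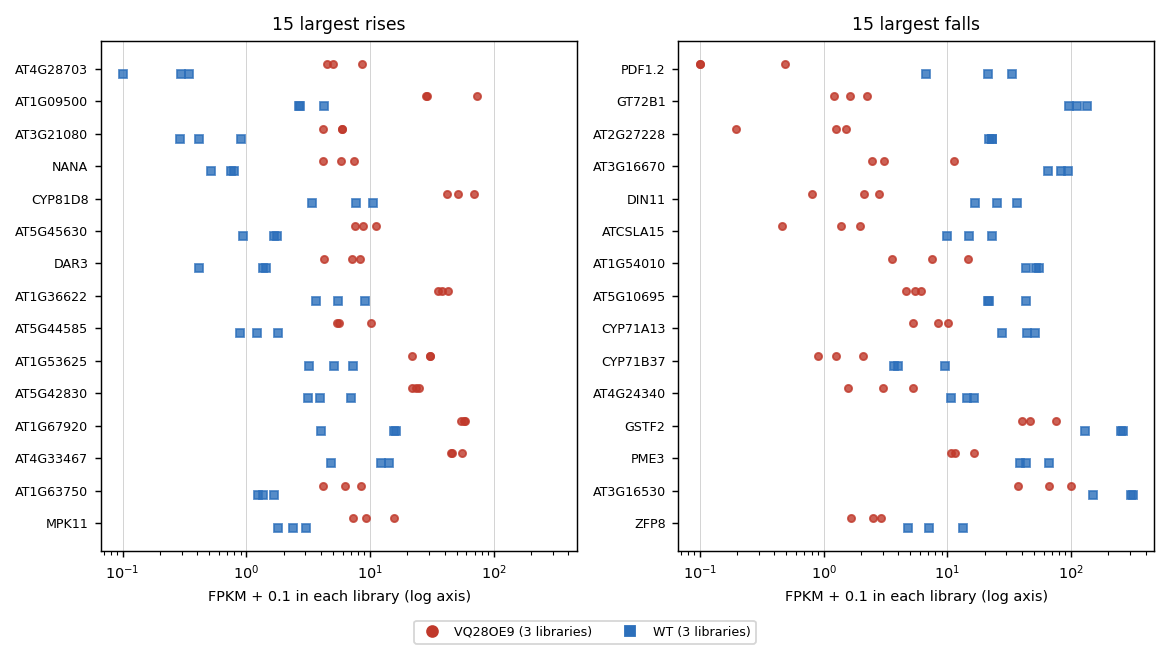
FPKM + 0.1 (log axis) in each library of the 15 largest rises and 15 largest falls by log2 fold change. They were taken from changed genes with at least 5 FPKM in the higher genotype and no overlap between genotypes. Points are single libraries, with VQ28OE9 and WT in different colours, and the lack of overlap in the 30 genes follows from this choice.

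Promoters were then compared, because WRKY factors bind the W box. The windows ran from 250 bases before to 50 bases after the start of each gene in the RefSeq annotation of TAIR10.1, and 15852 of the 16050 tested genes had one (217 of the higher and 149 of the lower genes). The W box was searched on both strands as TTGACC or TTGACT. The sequences shown are the 250 bases before the start of 4 of the 15 largest rises, chosen because they hold the most W boxes, and of PDF1.2, the first of the 15 largest falls, which holds GCCGCC. They are printed 5′ to 3′ in the direction of the gene, with W boxes of either strand in capitals, or GCCGCC of either strand in PDF1.2. They lie at chr4:14165844-14166093 (plus strand), chr4:17571744-17571993 (minus strand), chr5:17984277-17984526 (plus strand), chr1:25473294-25473543 (plus strand) and chr5:17907639-17907888 (minus strand).
AT4G28703: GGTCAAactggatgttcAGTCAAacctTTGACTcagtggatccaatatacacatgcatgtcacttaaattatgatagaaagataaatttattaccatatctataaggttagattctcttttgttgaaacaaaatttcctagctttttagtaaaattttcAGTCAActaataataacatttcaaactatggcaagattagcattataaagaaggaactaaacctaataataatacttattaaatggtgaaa
CYP81D8: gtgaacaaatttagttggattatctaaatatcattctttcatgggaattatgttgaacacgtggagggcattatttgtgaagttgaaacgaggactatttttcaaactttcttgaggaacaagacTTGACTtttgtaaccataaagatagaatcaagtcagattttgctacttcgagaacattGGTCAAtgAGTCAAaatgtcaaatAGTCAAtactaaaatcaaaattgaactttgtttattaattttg
AT5G44585: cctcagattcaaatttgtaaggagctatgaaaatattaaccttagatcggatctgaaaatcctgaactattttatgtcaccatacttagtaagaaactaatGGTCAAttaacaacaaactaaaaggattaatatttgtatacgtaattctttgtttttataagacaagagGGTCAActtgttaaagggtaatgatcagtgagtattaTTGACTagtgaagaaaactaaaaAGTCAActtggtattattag
AT1G67920: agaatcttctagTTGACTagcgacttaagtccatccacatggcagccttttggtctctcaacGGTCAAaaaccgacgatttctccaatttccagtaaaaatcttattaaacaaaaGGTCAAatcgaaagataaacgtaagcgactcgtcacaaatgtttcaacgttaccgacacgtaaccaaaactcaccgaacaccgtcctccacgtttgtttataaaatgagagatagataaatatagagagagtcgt
PDF1.2: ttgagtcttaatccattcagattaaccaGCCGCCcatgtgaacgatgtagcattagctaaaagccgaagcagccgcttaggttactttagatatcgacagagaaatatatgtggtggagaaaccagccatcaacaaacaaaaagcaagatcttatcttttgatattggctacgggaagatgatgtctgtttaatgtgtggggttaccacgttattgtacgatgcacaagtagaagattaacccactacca

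AT4G28703, CYP81D8 and AT5G44585 each hold 4 W boxes in these bases and AT1G67920 holds 3. Of the 15 largest rises 12 held at least 1 W box in the 250 bases before the start, and of the 14 largest falls with a promoter 3 did. Over the whole window a W box stood in 57.1% of the promoters of higher genes and 26.2% of those of lower genes, against 32.8% of all tested genes. At least 2 matches stood in 19.4% of the higher and 5.37% of the lower genes, against 7.92% of all tested genes. The share followed the fold change over the whole set of genes: sorted by log2 fold change into 10 groups of equal size, 26.6% of promoters in the lowest group, 30.6% in the fifth and 48.2% in the highest held a W box. These are descriptions of letters in the windows, which show neither binding nor a cause.

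In each subset of higher genes described here the share with a W box was above that of all tested genes. It was 57.7% of the 26 higher genes that kept their call without any 1 library and 58.5% of the 41 higher genes that passed the test without replicate 3 of either genotype. It was 61.6% of genes higher by at least 2-fold, 47.9% of those higher by less, and 54.5% of the higher genes that belong to none of the lists used here. By level it ranged from 45.3% of higher genes at 20 to under 100 FPKM to 66.7% of the 9 higher genes from 100 FPKM, where all tested genes ranged from 32.3% to 33.3%.

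Other motifs stood in different shares. The G box CACGTG was in 18.9% of higher and 8.05% of lower promoters, against 9.51% of all tested ones, and ACGTGG or ACGTGT, which resemble the abscisic acid response element, in 30.4% and 20.1%, against 21.3%. CACGTGG holds both of these motifs, so the counts overlap. The TGA factor core TGACG was in 31.8% of higher and 15.4% of lower promoters, against 23.9% of all, and CGCGT, the core of the CAMTA element, in 14.3% and 4.70%, against 9.99%. GCCGCC, the GCC box that ethylene response factors bind, stood in 0.461% of higher promoters (1 gene, BBX32) and 6.71% of lower ones (10 genes, PDF1.2 and GLT1 among them), against 2.78%. TGGGCC, the site II element common in promoters of genes for the protein synthesis machinery, was in 9.22% of higher and 8.05% of lower promoters, against 20.1% of all tested ones. The auxin response element core TGTCTC was in 10.1% of higher and 11.4% of lower promoters, against 13.0% of all, and the evening element AAAATATCT in 4.15% and 4.03%, against 3.02%. The telo box AAACCCTA was in 1.84% of higher and 3.36% of lower promoters, against 5.53%.

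**Figure D3:**
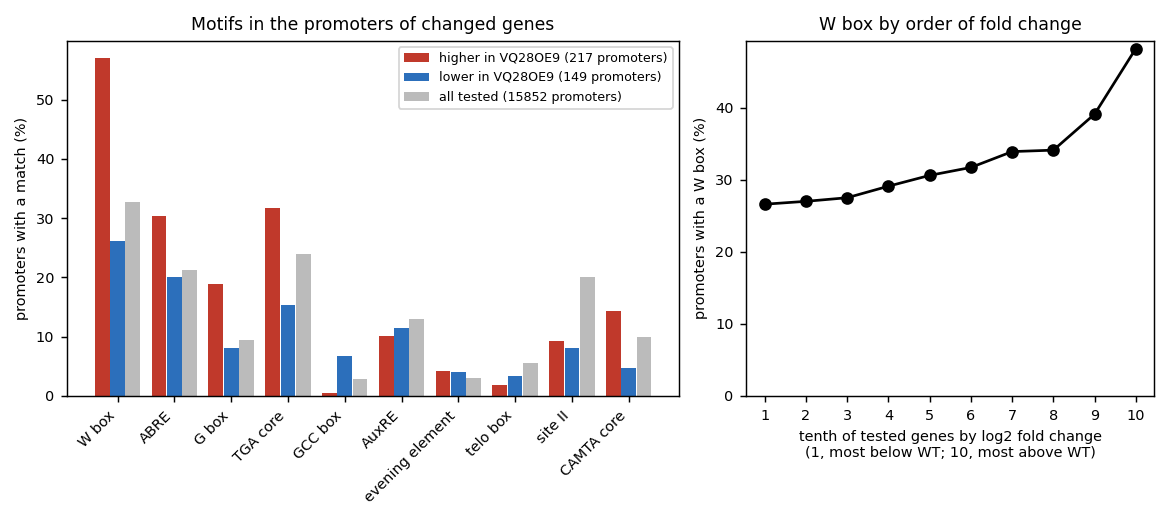
Share of promoters (percent) that hold each motif among the higher genes, the lower genes and all tested genes (left), and share with a W box in 10 groups of equal size sorted by log2 fold change (right). The W box share of higher genes, 57.1%, is above the 32.8% of all tested genes, and it is higher in each of the 10 groups than in the group before it.

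Among abundant transcripts, MT3, a metallothionein, gained most in FPKM of the changed genes other than VQ28, with 3568, 3511 and 3118 FPKM in VQ28OE9, against 2258, 2153 and 2024 FPKM in WT. CLH1, a chlorophyllase, lost most of the changed genes, with 1365, 1684 and 1912 FPKM in the VQ28OE9 libraries, against 2430.4, 2726 and 2876 FPKM in the WT libraries. Neither overlapped between genotypes, but the fold changes were small, at 0.64 ± 0.13 (SE; edgeR adjusted p = 0.0398) for MT3 and -0.72 ± 0.15 (SE; edgeR adjusted p = 0.0432) for CLH1, and both calls were lost without most of the libraries (highest adjusted p 0.136 for MT3 and 0.15 for CLH1). CCL, a gene whose mRNA is known to be short-lived and clock-controlled, had 386, 447 and 449 FPKM in VQ28OE9 and 164, 125 and 147 FPKM in WT. Its log2 fold change of 1.54 ± 0.13 (SE; edgeR adjusted p = 0.00732) was kept without any 1 library. The amino acid transporter gene AT3G56200 had 114, 116 and 114 FPKM in VQ28OE9 libraries 1 to 3 and 219.6, 193 and 195 FPKM in the WT libraries, and AT4G24350, of the phosphorylase superfamily, had 249, 335 and 291 FPKM in VQ28OE9, against 821, 709 and 751 FPKM in WT. VQ28OE9 was below WT in every library of both genes, and both falls, -0.84 ± 0.10 (SE; edgeR adjusted p = 0.011) and -1.41 ± 0.13 (SE; edgeR adjusted p = 0.00764), were kept without any 1 library. AT5G42530, which has no description in the deposited table, averaged 992 ± 64.5 FPKM in VQ28OE9 and 1822 ± 149.7 FPKM in WT (SD, n = 3 each). ESM1, which steers glucosinolate breakdown towards isothiocyanates, averaged 76.8 ± 13.7 FPKM in VQ28OE9 and 212 ± 41.9 FPKM in WT (SD, n = 3 each). Their log2 fold changes were -0.90 for AT5G42530 (edgeR adjusted p = 0.0273) and -1.49 for ESM1 (edgeR adjusted p = 0.0153), and both calls were lost without VQ28OE9 replicate 1 (highest adjusted p without 1 library 0.0899 for AT5G42530 and 0.0551 for ESM1). NHL3, PP2CA, the papain-type protease gene AT4G16190, AT4G25672, PUB19 and the cold and drought gene LTI78 were the other large gains, with log2 fold changes of 0.70 to 1.51, and each lost its call without at least 1 library. MT3, NHL3, AT4G25672 and AT4G24350 overlap another gene in the deposited coordinates. AT3G16530, GSTF2 and GT72B1 were the other large losses.

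Several families of signalling proteins held changed genes. Of 26 cysteine-rich receptor-like kinases, which sit in the plasma membrane with cysteine-rich extracellular domains, 3 were higher (11.5%, against 1.37% of all tested genes) and 0 lower, and 20 had a log2 fold change above 0 (median 0.42). CRK4 had 16.96, 20.4 and 15.3 FPKM in the VQ28OE9 libraries, against 6.77, 7.82 and 5.90 FPKM in the WT libraries. The log2 fold change was 1.34 ± 0.16 (SE; edgeR adjusted p = 0.011), kept without any 1 library, and all VQ28OE9 libraries were above WT. CRK23 (2.56 on the log2 scale, edgeR adjusted p = 0.0128) lost its call without VQ28OE9 replicate 1, and ARCK1 (1.40, edgeR adjusted p = 0.0432) lost it whichever of the 9 was left out (highest adjusted p 0.0551 for CRK23 and 0.136 for ARCK1). CRK23 averaged 0.430 FPKM in WT and 0.393 FPKM in VQ28KO12, and passed the filter only through VQ28OE9. Of 27 lectin and wall-associated receptor kinases, 3 were higher (LECRKA4.1, AT3G53810 and HLECRK, at 1.16 to 1.5) and 0 lower, with a median of 0.35. LECRKA4.1 overlaps AT5G01542. Of 61 calmodulin-like proteins and calcium-dependent kinases, 3 were higher and 0 lower, with a median of 0.21: CML38 (1.49), CAM9 (1.02) and CIPK12 (0.60). Apart from CRK4, each of the genes named in these 3 lists lost its call without at least 1 library.

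Some further groups were formed after the values were seen, and are given as description only. Of 97 leucine-rich repeat receptor kinases, 3 were higher and 10 lower (10.3%, against 0.935% of all tested genes), with a median log2 fold change of -0.13. The group does not hold every gene of this kind. EFR and PSKR1, both higher, are outside it, and lower genes outside it were not counted. AT4G26540 and AT5G56040 belong to the receptors of root meristem growth factor peptides. AT4G26540 had 3.65, 4.32 and 4.62 FPKM in VQ28OE9 and 11.1, 13.7 and 20.96 FPKM in WT. AT5G56040 had 0.829, 1.16 and 1.02 FPKM in VQ28OE9 libraries 1 to 3 and 2.44, 3.40 and 3.20 FPKM in the WT libraries. Neither gene overlapped between genotypes, and both falls, -1.88 ± 0.23 (SE; edgeR adjusted p = 0.011) and -1.61 ± 0.20 (SE; edgeR adjusted p = 0.011), were kept without any 1 library. The lower genes also held SERK2, a co-receptor of brassinosteroid and peptide receptors, and BAM3, a receptor kinase of the CLE peptide pathway, while SERK5 and AT1G51820 were higher.

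In several other groups formed in the same way, the changed genes were all higher. Of 22 U-box ubiquitin ligases, 5 were higher (22.7%, against 1.37% of all tested genes) and 0 lower, and 20 had a log2 fold change above 0 (median 0.25). The group does not hold every U-box gene: AT5G67340 and AT3G49810, both higher, are outside it, so these shares are not those of the whole family. PUB17, a ligase known from cell death in immunity, had 106, 93.9 and 86.6 FPKM in VQ28OE9, against 52.5, 54.4 and 38.4 FPKM in WT. PUB18 and PUB19, close relatives that act in abscisic acid signalling, had log2 fold changes of 1.41 and 1.51. Each VQ28OE9 library was above each WT library in all 5. The log2 fold change of PUB17 was 0.96 ± 0.14 (SE; edgeR adjusted p = 0.0154), lost without VQ28OE9 replicate 1 (adjusted p = 0.0682). The other 4, with CMPG1 (1.06) and CMPG2, lost their call without more than 1 library (for PUB19, highest adjusted p 0.138). Of 52 protein phosphatases 2C, which reverse the work of protein kinases and in several cases restrain abscisic acid signalling, 6 were higher and 0 lower (median 0.13). AT5G66080 had 9.27, 8.57 and 9.76 FPKM in the VQ28OE9 libraries, against 1.46, 2.95 and 1.71 FPKM in the WT libraries. It was above WT in every library and rose by 2.15 ± 0.26 (SE; edgeR adjusted p = 0.011), kept without any 1 library. PP2C5 (2.38), HAI2 (0.96) and PP2CA (0.82) lost their call without at least 1 library. Of 39 genes of the MAP kinase cascade 3 were higher (MPK11, MAPKKK18 and MPK5) and 0 lower, with 30 above 0 (median 0.20). Of 54 TIR-NBS-LRR receptors 3 were higher and 0 lower, with 44 above 0 (median 0.41). Both genes of the G protein core that changed, GP ALPHA 1 for the alpha subunit and AGB1 for the beta subunit, were higher, among 7 subunit genes. Their calls were lost without VQ28OE9 replicate 1, among others (highest adjusted p 0.123 for GP ALPHA 1 and 0.167 for AGB1).

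Transcription factor families differed in direction. All 10 tested zinc fingers of the ZAT, AZF and SZF type had a log2 fold change above 0 (median 0.93), and 1 of them, SZF1, passed the test (1.55, edgeR adjusted p = 0.0271). Of 47 listed AP2/ERF factors 2 were higher and 0 lower (median 0.33), AT1G22190 and RAP2.10. The list does not hold the whole family: AT4G28140 and AT1G64380, higher, and AT1G75490 and AIL5, lower, are outside it. Of 47 NAC factors NAC036 (1.78) and TIP (0.79) were higher and NAC2 (-1.20) lower (median 0.22). Of 43 R2R3 MYB factors 4 were higher and 1 lower, with a median of -0.04. The higher ones were MYB2 (1.28), MYB102 (1.17) and MYB74 (1.05), all known from drought, salt or wounding, and MYB94, a regulator of wax synthesis.

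MYB113, an activator of anthocyanin synthesis, went the other way, with 0.332, 0.581 and 0.245 FPKM in VQ28OE9 and 4.82, 3.92 and 3.01 FPKM in WT. All VQ28OE9 libraries were below 1 FPKM and all WT libraries above it, and the log2 fold change of -3.33 ± 0.36 (SE; edgeR adjusted p = 0.011) was kept without any 1 library. Among 12 flavonoid and anthocyanin genes MYB113 was the only one that changed. PRE1, a growth-promoting bHLH protein without a DNA-binding domain, had 3.62, 4.75 and 3.40 FPKM in VQ28OE9 libraries 1 to 3 and 8.98, 14.2 and 15.8 FPKM in the WT libraries. It fell by 1.75 on the log2 scale (edgeR adjusted p = 0.011), kept without any 1 library. BHLH92, known from salt and osmotic stress, was the other of 29 listed bHLH genes that changed, higher by 1.99 on the log2 scale (edgeR adjusted p = 0.0264). The list does not hold all bHLH genes: FMA and AT1G61660, both higher, are outside it. Of 23 B-box factors BBX32 (1.37) and BBX31 (1.04) were higher. Of 26 HD-ZIP factors 2 were lower, ATML1 and HB-8, and the median was -0.29. TGA1 and DOF1, named after their values were seen, were higher by 1.51 and 1.34 on the log2 scale and kept their call without any 1 library. Apart from MYB113, PRE1, ATML1, TGA1 and DOF1, the listed factors named here lost their call without at least 1 library.

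Genes that build and modify the cell wall were mostly lower where they changed. Of 31 genes for the acetylation of wall polysaccharides, 5 were lower and 1 higher, against 0.935% and 1.37% of all tested genes, with a median of -0.23. RWA4, which helps supply acetyl groups to the Golgi, had 5.18, 6.36 and 7.63 FPKM in VQ28OE9, against 12.9, 10.4 and 15.1 FPKM in WT. TBL26, of a family that holds wall polysaccharide acetyltransferases, had 62.8, 60.4 and 63.2 FPKM in the VQ28OE9 libraries, against 109, 109.8 and 139.6 FPKM in the WT libraries. The VQ28OE9 libraries of TBL26 were close together, and neither gene overlapped between genotypes. The log2 fold changes were -1.02 ± 0.19 (SE; edgeR adjusted p = 0.0307) for RWA4 and -0.97 ± 0.18 (SE; edgeR adjusted p = 0.0319) for TBL26. TBL28 (-1.12), TBL25 and TBL27 were also lower, and TBL38 (1.29), which overlaps other genes, was higher. All 6 calls were lost without at least 1 library (for RWA4, highest adjusted p 0.108).

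Of 34 xyloglucan enzymes and expansins, proteins that loosen or rebuild the wall in growing cells, 0 were higher and 3 lower: EXLB1 (-2.20), XTH31 (-1.25) and XTH32 (-0.81). The median was -0.34, and 12 of the 34 lay above 0. EXLB1 was near the filter, with means of 0.348 FPKM in VQ28OE9, 1.61 FPKM in WT and 1.17 FPKM in VQ28KO12. It passed only through WT and VQ28KO12, and had 90 units in VQ28OE9 against 368 in WT. CSLC04, which makes the glucan backbone of xyloglucan, had 5.65, 5.38 and 6.90 FPKM in VQ28OE9 and 12.3, 13.2 and 22.1 FPKM in WT. Together with ATCSLA15 it was 1 of 2 lower genes among 26 of the cellulose synthase superfamily, with a log2 fold change of -1.43 ± 0.25 (SE; edgeR adjusted p = 0.0245). It lost its call without VQ28OE9 replicate 1 or 2, and EXLB1, XTH31 and XTH32 without at least 1 library (highest adjusted p 0.0951 for CSLC04, 0.0718 for EXLB1). Among 31 pectin-modifying genes the changes went in both directions. ATPMEPCRB, a pectin methylesterase with an inhibitor domain, had 22.9, 20.9 and 17.7 FPKM in VQ28OE9 libraries 1 to 3 and 4.41, 6.26 and 3.01 FPKM in the WT libraries. PME3, a pectin methylesterase of the leaf wall, had 11.5, 16.4 and 10.6 FPKM in VQ28OE9, against 43.04, 38.8 and 66.4 FPKM in WT. Neither gene overlapped between genotypes. ATPMEPCRB was higher, at 2.15 ± 0.26 (SE; edgeR adjusted p = 0.011), and PME3 lower, at -1.98 ± 0.24 (SE; edgeR adjusted p = 0.011), and both calls were kept without any 1 library. PME44 (-0.73) was lower too. Of 22 lignin and phenylpropanoid genes GT72B1 and FAH1 were lower. FAH1, which directs lignin towards syringyl units, had 16.4, 17.6 and 21.97 FPKM in the VQ28OE9 libraries, against 49.1, 57.6 and 60.9 FPKM in the WT libraries. The log2 fold change was -1.60 ± 0.27 (SE; edgeR adjusted p = 0.0234), lost without VQ28OE9 replicate 1, VQ28OE9 replicate 2, WT replicate 2 or WT replicate 3 (highest adjusted p 0.0951). None of 37 listed cuticular wax and cutin genes passed the test, and 7 of them lay above 0 (median -0.40). The list leaves out DCF, which adds ferulate to cutin and was lower (-1.21), and the wax regulator MYB94, which was higher (1.01). Both were named after their values were seen and lost their call without at least 1 library. The member with the smallest p was AT4G13840 (-0.66, edgeR adjusted p = 0.0592).

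Among auxin transport genes the efflux carrier PIN3 and the transporter ABCB1 were lower, and none was higher. PIN3 had 8.25, 10.2 and 6.26 FPKM in VQ28OE9 and 21.3, 14.8 and 24.04 FPKM in WT. Every VQ28OE9 library was below every WT library. The log2 fold changes were -1.31 ± 0.27 (SE; edgeR adjusted p = 0.0398) for PIN3 and -0.53 for ABCB1, and both calls were lost without most of the libraries (highest adjusted p 0.125 for PIN3 and 0.164 for ABCB1). Of 78 auxin response genes 0 were higher and 1 lower, PAP2, an Aux/IAA repressor, and 24 lay above 0 (median -0.24). GAI, a DELLA repressor of gibberellin responses, had 11.3, 12.9 and 11.2 FPKM in VQ28OE9 libraries 1 to 3 and 18.2, 24.4 and 24.9 FPKM in the WT libraries. Its log2 fold change was -0.96 ± 0.14 (SE; edgeR adjusted p = 0.0157), the only call among 16 gibberellin genes, and it was lost without VQ28OE9 replicate 1 (adjusted p = 0.0718). None of 13 brassinosteroid genes changed (median -0.32, 2 above 0), with BAS1 nearest at -2.26 (edgeR adjusted p = 0.0636). None of 38 cytokinin genes changed (median 0.13), with CRF10 nearest at 0.89 (edgeR adjusted p = 0.0519). Hormone genes outside these lists also changed, such as the ethylene synthesis gene ACS2 (higher), the ethylene receptor gene ERS1 and the abscisic acid receptor gene PYL1 (both lower), which were named after their values were seen and lost their call without at least 1 library.

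In primary metabolism, changes were seen in nitrogen and amino acid genes and in oligosaccharide genes. NIA1, a nitrate reductase, had 10.95, 9.21 and 9.63 FPKM in VQ28OE9, against 19.5, 19.6 and 20.9 FPKM in WT. GLT1, the NADH-dependent glutamate synthase, had 13.9, 19.2 and 17.2 FPKM in the VQ28OE9 libraries, against 26.7, 28.9 and 28.5 FPKM in the WT libraries. These were the 2 lower of 25 nitrogen genes, where none was higher, and their libraries were close together within each genotype. The log2 fold changes were -1.03 ± 0.18 (SE; edgeR adjusted p = 0.0258) for NIA1 and -0.77 ± 0.12 (SE; edgeR adjusted p = 0.0203) for GLT1, lost without VQ28OE9 replicate 1 among others (highest adjusted p 0.0761 for NIA1 and 0.0718 for GLT1). Among 165 genes with a GO term for the synthesis of an amino acid, a group formed after the values were seen, 3 were higher and 8 lower, and 118 lay below 0 (median -0.12). AT4G24830, argininosuccinate synthase of arginine synthesis, had 67.9, 84.5 and 89.9 FPKM in VQ28OE9 and 162, 161 and 165 FPKM in WT. The WT libraries were close together, and all VQ28OE9 libraries were lower, with a log2 fold change of -1.03 ± 0.13 (SE; edgeR adjusted p = 0.011), kept without any 1 library. The lower genes also held ASA1 of tryptophan synthesis (-0.68), IMD2 of leucine synthesis, OMR1 of isoleucine synthesis and ATP-PRT1 of histidine synthesis. OASA2, a cysteine synthase gene copy, was higher, with 15.8, 16.4 and 12.98 FPKM in VQ28OE9 libraries 1 to 3 and 5.36, 4.43 and 3.09 FPKM in the WT libraries. It rose by 1.79 ± 0.24 (SE; edgeR adjusted p = 0.0119), kept without any 1 library, and read sharing with the other cysteine synthase genes was not tested.

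SIP1, a raffinose synthase, had 131, 101 and 119 FPKM in VQ28OE9, against 46.95, 49.3 and 26.6 FPKM in WT. TRE1, the trehalase, had 8.81, 7.58 and 7.65 FPKM in the VQ28OE9 libraries, against 3.69, 3.33 and 3.38 FPKM in the WT libraries. Both were above WT in every VQ28OE9 library, by 1.5 ± 0.21 (SE; edgeR adjusted p = 0.013) for SIP1, lost without VQ28OE9 replicate 1 (adjusted p = 0.0551), and 1.19 ± 0.15 (SE; edgeR adjusted p = 0.011) for TRE1, kept without any 1 library. With the trehalose phosphate synthase family member TPS11 (0.78) they were the 3 higher of 32 raffinose and trehalose genes, with 0 lower, in a group formed after the values were seen, like that for nucleotide sugars. UGE5, which interconverts UDP-glucose and UDP-galactose, rose by 1.65 ± 0.23 (SE; edgeR adjusted p = 0.0128), kept without any 1 library, while UXS4, a UDP-xylose synthase, was lower, at -0.99 ± 0.16 (SE; edgeR adjusted p = 0.0198), lost without VQ28OE9 replicate 1 among others (highest adjusted p 0.0826). UDG4, a UDP-glucose dehydrogenase, was the other lower gene of 32 for nucleotide sugar interconversion. Of 36 aspartyl proteases, also grouped after the values were seen, NANA was higher and 3 were lower.

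Detoxification enzymes changed in both directions. Of 107 cytochrome P450 genes 3 were higher (2.8%, against 1.37% of all tested genes): CYP81D8, CYP71A21 and CYP71B11. Another 5 were lower (4.67%, against 0.935% of all tested genes), with FAH1, CYP71A13 and CYP71B37 among them. Of 33 glutathione transferases 0 were higher and 2 lower (6.06%), GSTF2 and GSTU3. GSTF2 had 76.1, 46.2 and 40.2 FPKM in VQ28OE9 and 261, 251 and 129 FPKM in WT. All VQ28OE9 libraries were below WT, with a log2 fold change of -1.99 ± 0.31 (SE; edgeR adjusted p = 0.0197), lost without VQ28OE9 replicate 2 or WT replicate 1 (highest adjusted p 0.0609). Of 23 genes known to respond to electrophiles and xenobiotics 2 were higher (8.7%), AT1G09500 and CYP81D8, and 1 lower (4.35%), GSTU3. Of 38 UDP-glycosyltransferases 1 was lower (2.63%), GT72B1, and of 78 ABC transporters 3 were lower (3.85%), ABCG34 (-1.21), ABCG19 (-0.89) and ABCB1. No call was made among 33 antioxidant enzymes (PRXQ nearest, -0.46, edgeR adjusted p = 0.0924) or 15 class III peroxidases (PER4 nearest, 1.91, edgeR adjusted p = 0.0574).

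Large groups of housekeeping and photosynthesis genes held no changed gene. None of 232 cytosolic ribosomal protein genes changed, and 42 of them lay above 0 (median -0.11). None of 43 photosystem and light-harvesting genes changed, with 2 above 0 (median -0.10), and none of 22 carbon fixation genes, with 2 above 0 (median -0.18). None of 30 chlorophyll genes on the list changed (median -0.22), with HEMA2 nearest at 0.78 (edgeR adjusted p = 0.0836), but CLH1, the chlorophyllase that was lower, is not on that list. At a background of 2.31%, few calls or none would fall in the shorter of these lists. No call was made among 38 proteasome subunits (median -0.06), 29 autophagy genes (0.06), 19 ER stress genes (0.05), 41 heat shock genes (-0.12), 19 circadian clock genes (0.18), 15 flowering time genes (0.09), 17 MADS-box factors (0.02), 23 starch genes, 24 sugar transporters (0.05), 24 aquaporins (-0.07), 15 phosphate status genes (0.21) or 13 ribosome assembly genes (-0.16), where the values in brackets are median log2 fold changes. A p that misses the threshold does not show that these genes did not differ. Among 23 iron status genes NAS1, which makes the metal chelator nicotianamine, was higher (0.95, edgeR adjusted p = 0.0419), with 19 above 0 (median 0.35). Among 21 sulfur status genes 1 was lower, and among 28 cyclins and cell cycle kinases CYCD5;1 was lower. Among 22 low-oxygen genes CML38 and PP2-A13 were higher, while 11 of the 22 lay above 0 (median -0.0077). Among 19 sugar starvation and dark-inducible genes TPS11 was higher and DIN11 lower. NAS1, CYCD5;1, CML38, PP2-A13 and TPS11 lost their call without at least 1 library, and PP2-A13 overlaps AT3G61070 in the deposited coordinates.

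**Figure D4:**
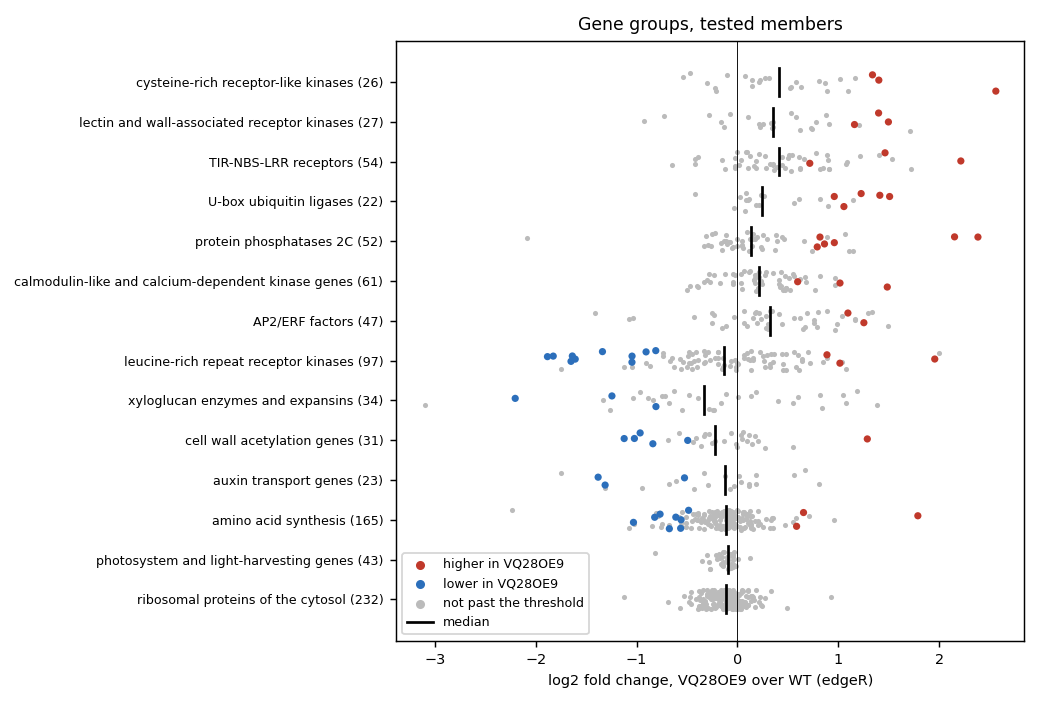
Log2 fold change, VQ28OE9 over WT, of the tested members of selected gene groups. Each point is 1 gene, coloured where it changed, and a bar marks the median of the group: cysteine-rich receptor-like kinases lie mostly above 0 (median 0.42) and xyloglucan enzymes and expansins mostly below (median -0.34).

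Markers of leaf cell types were compared as well. In whole leaves fewer cells of a type and less RNA per cell cannot be told apart. Summed over 10 guard cell markers, VQ28OE9 libraries 1 to 3 stood at 30.3, 29.7 and 28.4 FPKM, against 18.5, 17.1 and 22.4 FPKM in WT. The sums did not overlap, EPF1 was at 0 in all 6 libraries, and of the 6 tested markers 2 were higher and 0 lower. The log2 fold change was 0.78 for MYB60, 0.57 for SLAC1, 0.48 for BLUS1 and -0.23 for KAT1. None of these passed the test (edgeR adjusted p 0.210 for MYB60 to 0.736 for KAT1). FMA, also written FAMA, a regulator of guard cell differentiation, had 12, 9.50 and 8.92 FPKM in VQ28OE9 libraries 1 to 3 and 5.30, 5.57 and 6.39 FPKM in the WT libraries. HT1, a kinase in the guard cell response to carbon dioxide, had 4.41, 3.98 and 5.01 FPKM in VQ28OE9, against 1.44, 2.21 and 1.99 FPKM in WT. The log2 fold changes were 0.80 ± 0.16 (SE; edgeR adjusted p = 0.0406) for FMA and 1.22 ± 0.23 (SE; edgeR adjusted p = 0.0307) for HT1, and both calls were lost without VQ28OE9 replicate 1, among others (highest adjusted p 0.136 for FMA and 0.0961 for HT1).

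The 11 epidermis and trichome markers summed to 626, 766 and 906 FPKM in VQ28OE9 and 989, 667 and 1137 FPKM in WT, which overlap. ATML1, which specifies epidermal identity, was the 1 of 7 tested markers that changed, with 3.29, 4.94 and 4.90 FPKM in the VQ28OE9 libraries, against 9.06, 9.19 and 11.6 FPKM in the WT libraries. It fell by 1.21 on the log2 scale (edgeR adjusted p = 0.013), kept without any 1 library, and GL1 and WIN1 were at 0 in all 6 libraries. The 5 mesophyll markers summed to 35062 to 41233 FPKM in VQ28OE9 and 40943 to 45657 FPKM in WT, with none of 5 changed. The 10 vascular markers summed to 446 to 509 FPKM in VQ28OE9 and 480 to 544 FPKM in WT, with HB-8 lower (1 of 9 tested). Markers of dividing cells summed to 13.0 to 16.1 FPKM in VQ28OE9 and 15.7 to 20.4 FPKM in WT, with none of 4 tested changed. Root markers summed to at most 5.79 FPKM in VQ28OE9 and 12.7 FPKM in WT, flower and pollen markers to at most 2.42 FPKM in VQ28OE9 and 2.65 FPKM in WT, and seed markers to at most 8.28 FPKM in VQ28OE9 and 4.22 FPKM in WT. LFY, AP1, IRT1, CASP1, OLEO1 and LEC1 were at 0 in all 6 libraries. The part of cell make-up in the other results was not tested.

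Changed genes were spread over the genome. The share that changed was between 2.04% on chromosome 5 and 2.89% on chromosome 4, and none of 59 plastid or 27 mitochondrial genes changed. By the deposited coordinates, 1 run of at least 3 changed genes among 5 neighbours was found, on chromosome 4 from 12603521 to 12611468. It holds AT4G24330 (-0.56), AT4G24340 (-2.12) and AT4G24350 (-1.41), all lower in VQ28OE9. AT4G24340 had 1.47, 2.95 and 5.13 FPKM in VQ28OE9 and 10.7, 16.2 and 14.3 FPKM in WT. AT4G24340 and AT4G24350 are neighbours of the same superfamily, and reads may be shared between them, while AT4G24350 also overlaps AT4G24370. AT4G24330 and AT4G24340 lost their call without VQ28OE9 replicate 1, among others (highest adjusted p 0.135 for AT4G24330 and 0.125 for AT4G24340).

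**Figure D5:**
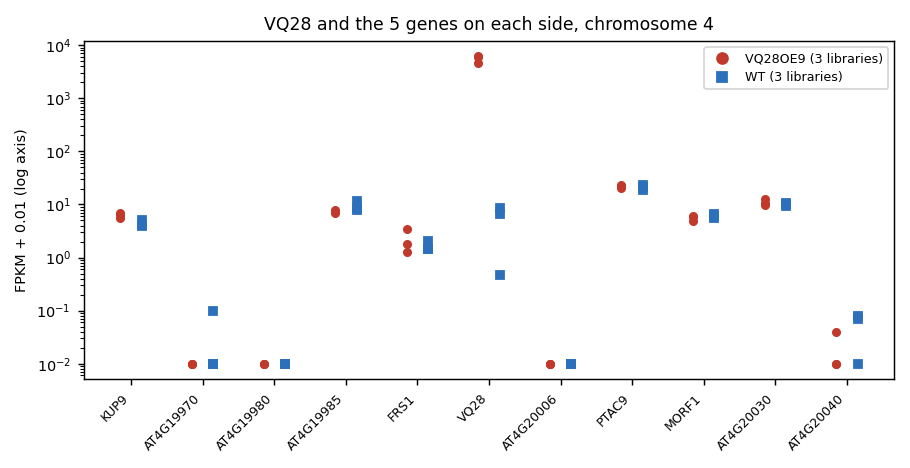
FPKM + 0.01 (log axis) in each library of VQ28 and the 5 genes on each side of it, in the order of the deposited coordinates, with VQ28OE9 and WT in different colours. VQ28 stands at 4665 to 6244 FPKM in the 3 VQ28OE9 libraries and at 0.456 to 8.70 FPKM in WT, while none of its tested neighbours passed the test, although KUP9 and AT4G19985 do not overlap between genotypes.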

How the data were processed

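Polyadenylated RNA of 9 leaf libraries was sequenced in pairs after strand marking with dUTP, per the labels' protocols. The authors deposited 1 table with an FPKM value and a whole-number count for each gene and library, per the file headers. No source used here names the aligner, the counter, its use of strand or the genome build. The counts the authors deposited were taken as estimated counts, since 48.7% to 57.0% of the values from 1 to 16 in a library were multiples of 4. The authors listed genes without counts at 0.0001 FPKM, which was set to 0 here.

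Genes with a mean of at least 1 FPKM over the 9 libraries were tested with the quasi-likelihood test of edgeR 4.0.16 in R 4.3.3 on the deposited units, with TMM scaling, 1 mean per genotype and all 9 libraries, two-sided, with Benjamini-Hochberg adjustment over the 16050 genes. The estimated counts, which are not raw reads, were fitted as deposited. SE is the size of the log2 fold change over the square root of F. An exact permutation test of VQ28 over the 6 libraries gave a two-sided p of 0.1, the smallest it allows. On simulated data of this comparison with 16050 genes, the test found 44.0% of 2-fold and 96.0% of 4-fold changes, with 5.41% of its calls false. The simulated counts were drawn independently for each gene and library, with 100 genes changed at each fold. They hold no shift shared by many genes of a library, so the 5.41% is not an error rate of the 370 calls. A ratio against a genotype with few units used fragments of 4 units and a floor of 3 fragments per library. Intervals cover counting error only.

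The genes named were VQ28, the 15 largest rises and falls with at least 5 FPKM in the higher genotype and no overlap, the 8 largest gains and losses in FPKM, up to 4 changed members of each of 51 lists, or the member with the smallest p where none changed, the genes next to VQ28, and runs of changed genes. Other genes were named after their values were seen, and 1 gene that the rule names is not reported here. The members and lists were chosen with earlier results of these data known. Alternatives used DESeq2 1.42.0, limma 3.58.1 on log2(FPKM + 1) and log2(FPKM + 0.1), other scalings and filters, a replicate block and each library left out in turn. The main fit did not pair libraries by replicate number, since the labels do not say what a shared number means. Gene names came from the TAIR10.1 gene table, which matched 15853 of the tested genes, and coordinates of genes are those of the deposited table. Promoters were read from TAIR10.1 by gene identifier.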

Additional observations from a re-analysis of the deposited data

How the results depend on the processing

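The 370 calls came to 1358 with DESeq2, 163 with only the 6 libraries of VQ28OE9 and WT, 94 without replicate 3 of both genotypes, and 238 at a change of at least 2-fold. Leaving out 1 library gave 46 to 337 calls. All 370 genes were among the DESeq2 calls, 147 among those from 6 libraries and 71 among those without both replicates 3. Of the 94, 50.0% were higher, against 59.5% of the 370. Among the other alternatives, limma on log2(FPKM + 1) gave 472, limma on log2(FPKM + 0.1) 414, RLE factors 374, upper-quartile factors 371, library sizes without VQ28 371, no FPKM filter 393, a minimum mean of 5 FPKM 273, and units divided by 4 398. The cause of these differences was not tested. Upper-quartile factors moved the median of all genes to -0.034, with which the small positive medians of cytochrome P450 genes and MADS-box factors turned negative.

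A fit with the replicate number as a block gave 468 calls, of which 320 were among the 370, and 423 with the 6 libraries only. Deviations of same-numbered VQ28OE9 and WT libraries correlated at 0.16, -0.080 and 0.31 for numbers 1 to 3, and not every library correlated best with its own number, so the numbers were not taken as a pairing.

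Of the 95 changed genes named by the rule, 17 passed in every alternative, and the least stable, TBL28, passed in 6 of the 21 in which it was tested. No fold change of a named gene turned its direction. Depth limits genes with few fragments, such as PDF1.2 in VQ28OE9 and AT2G01422 in WT, whose ratios have wide intervals. There are 3 libraries per genotype and 1 overexpression line.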

Other observations

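Pathways and GO terms, as the deposited table assigns them, are given as counts of changed genes without a test, beside 1.37% higher and 0.935% lower among all tested genes. Of 253 genes of the plant-pathogen interaction pathway 12 were higher (4.74%) and 0 lower (median log2 fold change 0.21, 180 above 0), with the receptor kinase gene EFR, the lipase-like immune regulator PAD4 and the cyclic nucleotide-gated channel gene CNGC17 among the higher ones. Of 203 genes of the plant MAPK signalling pathway 9 were higher (4.43%) and 6 lower (2.96%), the lower ones including the ethylene receptor gene ERS1 and the abscisic acid receptor gene PYL1. Of 121 genes of cysteine and methionine metabolism 3 were higher (2.48%), with the ethylene synthesis gene ACS2, and 4 lower (3.31%), with the glutathione synthesis gene GSH1.

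Among GO terms, 13 of 202 genes for the cellular response to hypoxia were higher (6.44%, against 1.37% of all tested genes) and 0 lower (median 0.40). The list of 22 low-oxygen core genes did not share this shift, with 11 above 0 and a median of -0.0077. For the response to water deprivation 11 of 261 were higher (4.21%) and 0 lower (median 0.09). For the response to osmotic stress 8 of 126 were higher (6.35%) and 0 lower, and for the response to chitin 10 of 108 were higher (9.26%) and 2 lower (1.85%; median 0.63). In the apoplast term 2 of 221 were higher (0.905%) and 7 lower (3.17%, against 0.935% of all tested genes; median -0.14), with ESM1, PME3 and the subtilase gene SBT3.3 among the lower ones. The terms share members, so these counts are not independent of each other.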
